A study of Mus musculus with 2 samples.

Results

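The tumour necrosis factor (TNF) superfamily was followed in CMT93 cells, an established mouse colon carcinoma line (strain C57BL/ICRF, labelled tissue rectum), with and without lipopolysaccharide (LPS), a cell wall component of Gram-negative bacteria that is sensed by Toll-like receptor 4. Members were the array gene names beginning with Tnfsf or Tnfrsf, the TRAF genes Traf1 to Traf7, and Tnf, Lta, Ltb, Fas, Fasl, Cd40, Cd40lg, Cd27, Cd70, Ltbr, Tradd and Ripk1. They made up 51 of 34648 gene names: 17 ligand names, 24 receptors, 7 TRAFs, 2 signalling proteins of the receptor complex and 1 antisense transcript, Tnfsf13os. Each member took the value of its brightest probe.

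Total RNA was measured on 2 one-colour (Cy3) Agilent arrays on 1 slide. One array held cells labelled control, taken here as untreated, and the other cells given LPS at 3 µg/mL for 24 h, all grown in DMEM. The labels give 1 identical treatment description for control and LPS alike, and its dose and time were taken to apply only to the sample whose title names LPS. Whether either RNA came from 1 culture or several was not given in the sources used here. With 1 array per group there was no test, and a difference was read by its size alone. The comparison asks how these transcripts stood after LPS relative to untreated cells.

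TNF superfamily ligands are mostly trimeric proteins of the cell surface, some of them shed, that bind cognate receptors on the same or neighbouring cells. Receptors without a death domain recruit TRAF adaptors and feed the NF-kB and JNK pathways. Receptors with a death domain bind adaptors such as TRADD or FADD and can lead either to NF-kB through the kinase RIPK1 or to cell death. In the bowel, TNF acts on epithelial cells and is a target of therapy in inflammatory bowel disease, and many other ligands of the family are known chiefly from lymphocytes and myeloid cells.

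Of the 51 members, 33 (64.7%) were detected on both arrays, against 58.7% of all gene names. Detected means here that the scanner software marked the probe as well above background. Fas and Cd27 were detected only with LPS, and Tnfrsf18 and Tnfrsf26 only in control cells. The other 14 members (27.5%) were detected on neither array, against 36.7% of all gene names. No spot on either array was saturated. A gene detected on 1 array has only a lower bound on its fold difference, and those detected on both are called measured.

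Tnf, Ltb, Tnfrsf1b and the readthrough name Tnfsf12Tnfsf13 were 2-fold or more higher with LPS, and no measured member was 2-fold lower. The 4 higher members were 12.1% of the 33 measured on both arrays. The background shares were 1.46% of 20328 measured gene names at least 2-fold higher and 0.571% at least 2-fold lower. At 1.5-fold, 6 members (18.2%) were higher and none was lower, where the background shares were 3.59% and 2.68%. The median log2 difference (LPS minus control) of the 33 members was 0.15, and that of all measured gene names was -0.02. In all, 24 of the 33 (72.7%) were above 0, as were 44.5% of all measured gene names. The 4 higher members all lay below the median brightness of measured gene names, and of the 14 members at or above it none was 2-fold different. Few gene names were there: of 10164 at or above it, 94 were at least 2-fold higher and 15 lower.

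**Figure D1:**
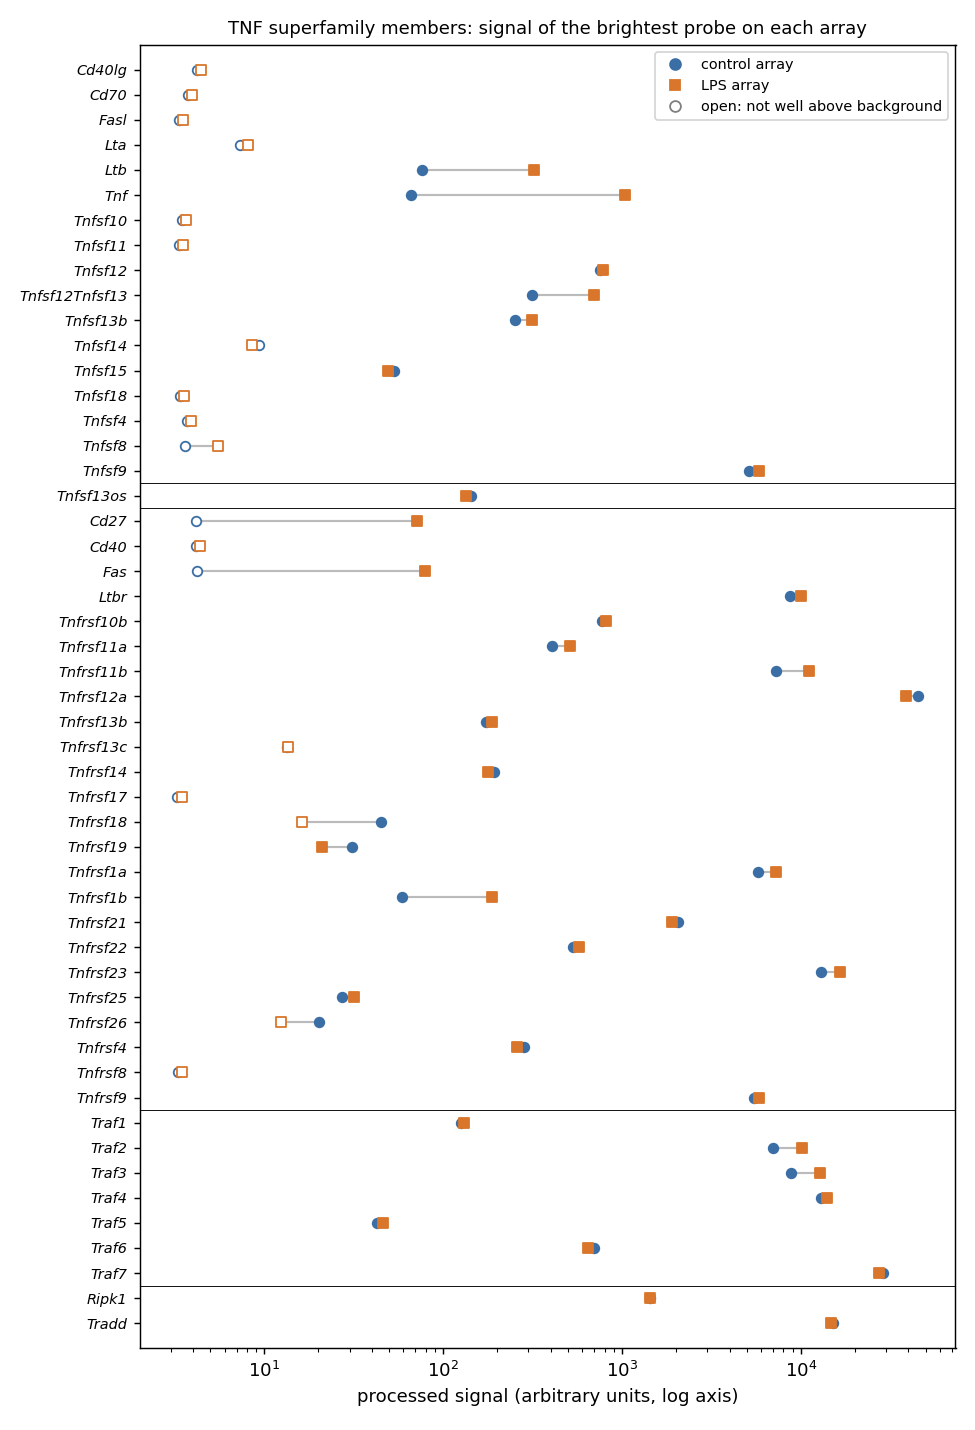
Processed signal (arbitrary units, log axis) of each member's brightest probe from control cells (circles) and LPS-treated cells (squares), grouped as ligands, antisense transcript, receptors, TRAFs, and adaptor or kinase. Open symbols were not detected. The long lines at Tnf, Ltb and Tnfrsf1b mark the measured members that differed most, and most filled pairs lie close together. Those at Fas and Cd27 end at an undetected control signal, so their length is not a measured difference. Levels of different probes are not comparable with each other.

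The values after each ± are the median SD of the log2 difference between spots of probes printed 10 times, taken for probes of similar brightness. Of 254 such probes, ranked by brightness and split into equal groups, it was 0.14 for the dimmest 64, then 0.06 and 0.04, and 0.03 for the brightest 64. A single dim probe reached 0.50. It covers the slide and not the spread between cultures, which 1 array a group cannot show.

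Tnf, the founding ligand of the family, had the largest difference of any measured member. Its probe lies on mouse chromosome 17 at 35336795 to 35336854 (mm9) and was printed 10 times. On the control array its spots ran from 57.4 to 79.6 units of processed signal, with a median of 64.0, and on the LPS array from 998 to 1100, with a median of 1046. The spots of the arrays did not overlap. After scaling, Tnf was 16.5-fold higher on the LPS array, a log2 difference of 4.04 with an SD of 0.17 over its own 10 spots, and it ranked 18th from the highest among the 20328 measured gene names. With normexp, a model-based background correction that adds an offset and pulls dim signals together, the log2 difference was 3.11, or 8.61-fold.

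Ltb encodes lymphotoxin beta, which is membrane-bound and forms the ligand of the lymphotoxin beta receptor together with lymphotoxin alpha. Its probe, on chromosome 17 at 35333097 to 35333156, read 76.4 in control cells and 321 with LPS. It was 4.33-fold higher, at 2.12 ± 0.14, and 2.82-fold higher with normexp. Lta, which encodes the secreted lymphotoxin alpha, lies beside Tnf on the side away from Ltb, and the 3 probes span 7.24 kb. The Lta probe was printed 10 times, and 9 spots were used. They ran from 3.62 to 14.1 on the control array and from 4.37 to 10.97 on the LPS array, overlapping, and the probe was not detected. Ltb and Tnf were thus detected on both arrays, and Lta in the same span on neither.

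**Figure D2:**
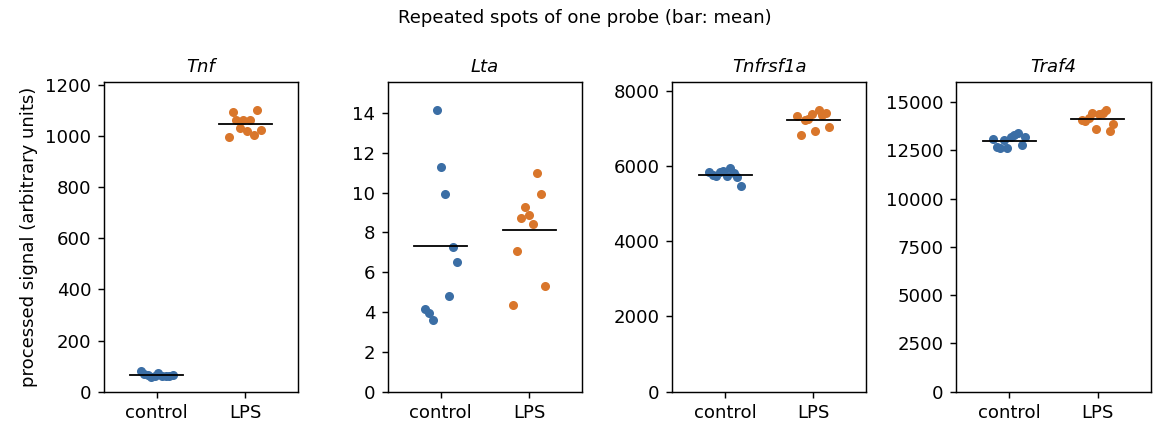
Processed signal (arbitrary units, linear axis from 0) of every used spot of the 4 members whose probe was printed 10 times, on the control and LPS arrays, with the mean as a bar. The Tnf spots are far apart between the arrays, those of Tnfrsf1a and Traf4 are separate by a small step, and those of Lta overlap at background.

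The 250 bases before the RefSeq start of Ltb and of its neighbour Tnf (GRCm38.p6) are shown because these adjacent ligand genes were both higher on the LPS array, and that of Tnfrsf1b because it was the receptor with the largest measured difference. Capitals mark a match to the NF-kB consensus, searched by name on both strands. The Ltb sequence is chr17:35194257-35194506 on the plus strand, that of Tnf is chr17:35202008-35202257 on the minus strand, and that of Tnfrsf1b is chr4:145246871-145247120 on the minus strand.
Ltb: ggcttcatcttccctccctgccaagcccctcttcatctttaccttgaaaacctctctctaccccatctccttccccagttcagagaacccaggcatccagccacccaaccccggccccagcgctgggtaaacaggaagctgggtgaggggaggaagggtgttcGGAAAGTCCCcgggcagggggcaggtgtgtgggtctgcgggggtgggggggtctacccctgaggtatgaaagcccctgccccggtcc
Tnf: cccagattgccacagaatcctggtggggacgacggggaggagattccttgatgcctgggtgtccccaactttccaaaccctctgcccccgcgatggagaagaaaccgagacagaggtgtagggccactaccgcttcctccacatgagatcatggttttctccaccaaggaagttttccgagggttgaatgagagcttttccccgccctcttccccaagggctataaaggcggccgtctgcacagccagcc
Tnfrsf1b: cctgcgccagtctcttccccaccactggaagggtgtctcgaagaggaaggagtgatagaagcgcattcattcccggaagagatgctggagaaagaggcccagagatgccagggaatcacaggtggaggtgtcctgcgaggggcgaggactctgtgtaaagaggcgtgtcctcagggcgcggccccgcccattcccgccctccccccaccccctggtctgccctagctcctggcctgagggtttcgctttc
The Ltb sequence held 1 match, which began 87 bases before the start, and those of Tnf and Tnfrsf1b held none in this window. Of the 38 members with a promoter in the table, 5 (13.2%) held a match within the 300-base window that runs 50 bases past the start, against 9.55% of 27025 genes. Besides Ltb these were Traf3, Tnfrsf9, Tnfrsf25 and Tnfrsf8. Of those, Traf3, Tnfrsf9 and Tnfrsf25 were measured and under 2-fold, and Tnfrsf8 was detected on neither array. A match is a stretch of letters and not a shown binding site.

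Tnfsf12Tnfsf13 is the array's name for a transcript that joins Tnfsf12, which encodes TWEAK, to Tnfsf13, which encodes the B cell factor APRIL. Its brighter probe, on chromosome 11 at 69496733 to 69496792, read 313 in control cells and 693 with LPS, 2.28-fold higher at 1.19 ± 0.06. Its other probe read 40.4 and 52.8, a difference of only 0.43 ± 0.14, and the median over both probes, at 0.81, was under 2-fold. Tnfsf12 itself, with probes 3.55 kb away on the same strand, was at 0.09 ± 0.06 on its brighter probe (756 and 780) and at 0.26 ± 0.06 on the other. No member is named Tnfsf13 alone, and whether the readthrough probes also take up that transcript was not tested. Tnfsf13os, a transcript of the opposite strand in the same locus, was at -0.06 ± 0.14.

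The remaining measured ligands differed little. Tnfsf13b, which encodes the B cell survival factor BAFF, read 254 in control cells and 312 with LPS, at 0.34 ± 0.14. Tnfsf9, the ligand of the costimulatory receptor 4-1BB, read 5146 and 5805, at 0.22 ± 0.03. Tnfsf15, which encodes TL1A, read 52.9 and 49.0, at -0.06 ± 0.14. The genes for Fas ligand (Fasl), CD40 ligand (Cd40lg), CD70 (Cd70), TRAIL (Tnfsf10), RANKL (Tnfsf11), LIGHT (Tnfsf14), GITR ligand (Tnfsf18), OX40 ligand (Tnfsf4) and CD30 ligand (Tnfsf8) were, like Lta, detected on neither array. Only 7 of the 17 ligand names (41.2%) were therefore measured, against 58.7% of all gene names. Of these 7 ligands 3 were at least 2-fold higher, against 1.46% of all measured gene names.

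Of the 24 receptors, 16 were measured on both arrays, with a median of 0.15. Tnfrsf1b, which encodes TNF receptor 2, read 58.6 in control cells and 187 with LPS. It was 3.30-fold higher, at 1.72 ± 0.14, ranking 103rd from the highest of all measured gene names, and its single probe lies on chromosome 4 at 144802359 to 144802418. With normexp it was 2.08-fold higher, at 1.06. Tnfrsf1a, which encodes TNF receptor 1, the widely expressed death domain receptor, differed less. Its 10 control spots ran from 5483 to 5956 with a median of 5790, and its LPS spots from 6821 to 7481 with a median of 7296, without overlap. The log2 difference was 0.37 with an SD of 0.04 over these spots, and a further probe gave 0.30 ± 0.04.

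Fas, the death receptor for Fas ligand, was detected only with LPS. Its probe on chromosome 19 at 34402164 to 34402223 was printed 2 times, at 3.31 and 5.05 on the control array and at 52.5 and 106 on the LPS array. With LPS it was at least 4.82-fold higher. Cd27, the receptor for CD70, read 4.16 in control cells and 71.2 with LPS, at least 4.61-fold higher. Its other probe was detected on neither array, at 10.4 and 3.49, so the Cd27 bound rests on 1 spot per array. For these bounds the undetected side was set at the lowest signal of any detected probe on that array. Bounds of 2-fold or more on the LPS side were found for 0.869% of all gene names. With normexp both fell short of 2-fold, at 1.99-fold for Fas and 1.76-fold for Cd27. Members detected with LPS alone were 3.92% of the 51, and 1.93% of all gene names were.

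Tnfrsf18, which encodes the costimulatory receptor GITR, was detected only in control cells, at 44.7 against 16.3. It was at least 2.56-fold higher there, and 1.32-fold with normexp. Tnfrsf26 read 20.2 in control cells and 12.4 with LPS, a bound of 1.16-fold. Of all gene names, 2.73% were detected only in control cells, and 0.525% had a bound of 2-fold or more on that side. Tnfrsf19, known as TROY and as a WNT target in intestinal stem cells, had the lowest value of the measured members. It read 30.9 and 20.9, at -0.52 ± 0.14, close to background on both arrays, and at -0.11 with normexp. Its other probe was detected on neither array, at 17.6 and 10.9.

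**Figure D3:**
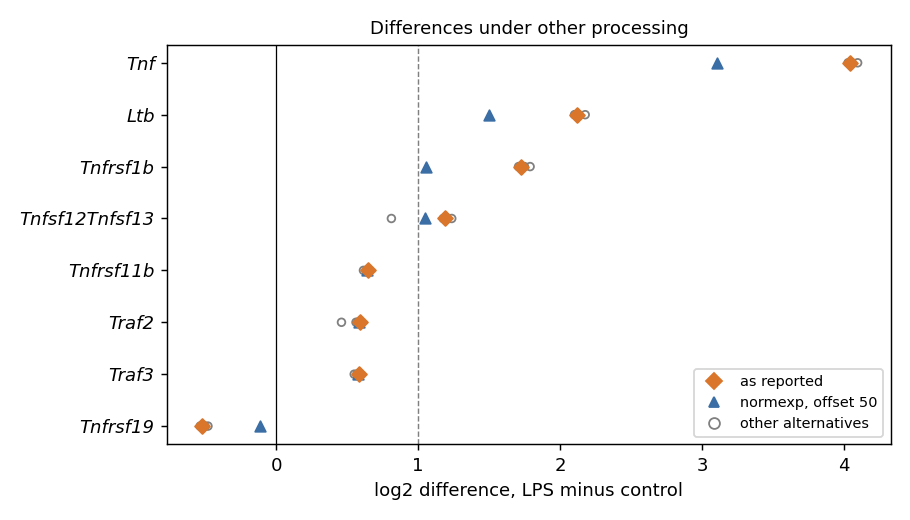
Log2 difference (LPS minus control) of 8 members as reported (diamonds), with normexp background correction (triangles) and under the other alternatives (open circles), with a dashed line at 2-fold. Normexp brings the dim members Tnf, Ltb, Tnfrsf1b and Tnfrsf19 nearer to 0, and the open circle of Tnfsf12Tnfsf13 left of the line is the median over its probes.

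Tnfrsf11b encodes osteoprotegerin, a soluble decoy receptor for RANKL and TRAIL. It read 7292 in control cells and 11069 with LPS, 1.57-fold higher at 0.65 ± 0.03. The decoy receptor genes of the mouse chromosome 7 cluster, Tnfrsf23 and Tnfrsf22, stood at 0.38 ± 0.03 and 0.14 ± 0.06. Their further probes gave 0.06 ± 0.14 and 0.45 ± 0.06, so the probes of each gene disagreed by more than these SDs. All 3 decoy receptors were above 0 and none reached 2-fold, where the background shares were 44.5% above 0 and 1.46% at least 2-fold higher. Tnfrsf11a, which encodes RANK, read 408 and 515, at 0.38 ± 0.06.

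Ltbr, the lymphotoxin beta receptor gene, whose product also binds LIGHT, read 8751 in control cells and 9984 with LPS, at 0.24 ± 0.03. Tnfrsf12a, the TWEAK receptor Fn14, read 45462 and 38888, at -0.18 ± 0.03. Tnfrsf9, which encodes 4-1BB, was at 0.15 ± 0.03 (5448 and 5843) on its brighter probe. Its further probe was far dimmer, at 18.7 in control cells and 27.9 with LPS. That probe was detected only with LPS, with a bound of 1.54-fold. Among the other death domain receptors, the TRAIL receptor Tnfrsf10b was at 0.12 ± 0.06 (772 and 814), Tnfrsf21 at -0.06 ± 0.04 (2054 and 1916) and Tnfrsf25 at 0.27 ± 0.14 (27.2 and 31.7). Of the 5 death domain receptors, none measured on both arrays reached 1.5-fold, and only Fas had a bound past it. Of all measured gene names, 3.59% were at least 1.5-fold higher and 2.68% lower.

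The lymphocyte receptor genes were a mixture. Tnfrsf13b, which encodes TACI, was at 0.16 ± 0.14, Tnfrsf14, which encodes HVEM, at -0.07 ± 0.14 and Tnfrsf4, which encodes OX40, at -0.09 ± 0.14. Each of these was measured on 1 probe, since the further probes of Tnfrsf13b and Tnfrsf14 were not detected on both arrays. A dimmer Tnfrsf13b probe was detected only in control cells, at 21.5 against 14.0. Its bound, 1.23-fold higher in control cells, is opposite in direction to the brighter probe. Cd40, Tnfrsf8 (CD30), Tnfrsf13c (the BAFF receptor) and Tnfrsf17 (BCMA) were detected on neither array. CD40 is a costimulatory receptor of antigen-presenting cells.

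**Figure D4:**
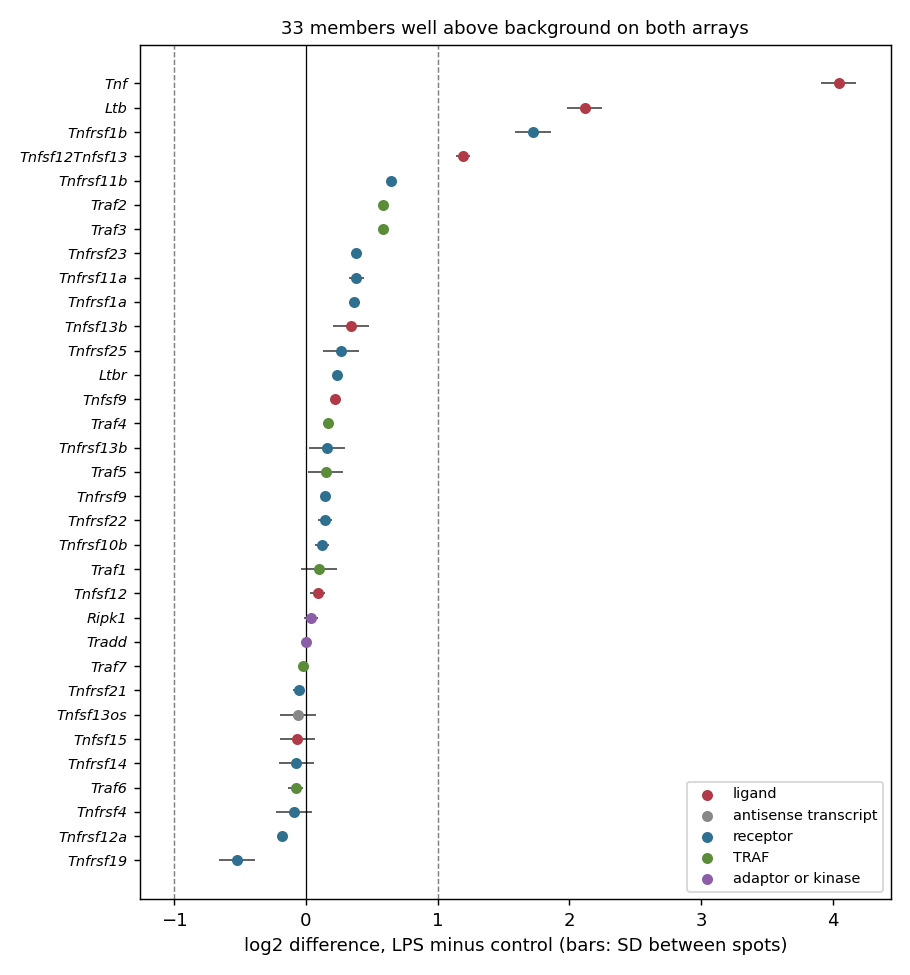
Log2 difference (LPS minus control) of the 33 members detected on both arrays, ordered by value and coloured by role, with bars for the SD between spots at similar brightness. Dashed lines mark 2-fold. Tnf, Ltb, Tnfrsf1b and Tnfsf12Tnfsf13 lie to the right of the 2-fold line, 20 members lie within 0.25 of 0, and none lies left of the lower line.

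The intracellular members were all measured. TRAF2 and TRAF3 are ubiquitin ligase adaptors that together restrain the kinase NIK and so the non-canonical NF-kB pathway. Traf2 read 6954 in control cells and 10135 with LPS, just past 1.5-fold higher, at 0.59 ± 0.03, with its further probe at 0.33 ± 0.14. It reached 1.5-fold under 7 of 11 alternatives, and the median over its probes was 1.37-fold. Some of those 7 changed only the filter, or took the probe brightest in control cells, and left its value as it was. Traf3 read 8795 and 12763, at 0.58 ± 0.03, just under 1.5-fold, and reached it under 3 of the 11. Traf2 reached 1.5-fold under these 3 too. The filters left the Traf3 value unchanged as well, so the counts for Traf2 and Traf3 are not to be compared. Traf4 was at 0.16 with an SD of 0.03 over 10 spots, which ran from 12591 to 13368 on the control array and from 13506 to 14559 on the LPS array.

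Traf1, whose product binds TRAF2 and which is known as an NF-kB target, read 126 and 131, at 0.10 ± 0.14. Traf5 was at 0.15 ± 0.14 (42.8 and 46.0) and Traf7 at -0.02 ± 0.03. A far dimmer Traf7 probe was detected only in control cells, at 21.1 against 15.5, a bound of 1.21-fold. Traf6, the ligase shared by Toll-like receptor and CD40 signalling, read 699 and 642, at -0.08 ± 0.06, and its further probes gave -0.13 ± 0.06 and -0.08 ± 0.14. Tradd, the adaptor of TNF receptor 1, read 15125 and 14669, at 0.00 ± 0.03. Ripk1 read 1441 and 1433, at 0.04 ± 0.06 after scaling, which raised the LPS array slightly against the control array. No TRAF, and neither signalling protein of the receptor complex, was 2-fold different, where the background shares were 1.46% higher and 0.571% lower.

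Ligands were set beside their known receptors for 23 ligand-receptor pairs in which both names were members. On either array, both sides were detected in 7 pairs: Tnf with Tnfrsf1a and with Tnfrsf1b, Ltb with Ltbr, Tnfsf9 with Tnfrsf9, Tnfsf12 with Tnfrsf12a, Tnfsf13b with Tnfrsf13b, and Tnfsf15 with Tnfrsf25. Pairs were counted by name, so Ltb with Ltbr is counted although Lta, the partner of Ltb, was detected on neither array. Tnfsf9 with Tnfrsf9 rests on the brighter Tnfrsf9 probe, as the other was detected only with LPS. In Tnf with Tnfrsf1b both sides were 2-fold or more higher with LPS. The receptor alone was detected in 10 pairs without LPS and in 11 with it. Fas and Cd27 entered that group on the LPS array while Fasl and Cd70 stayed below background, and Tnfrsf18 left it. The ligand alone was detected in 2 pairs, those of Tnfsf13b with Tnfrsf13c and with Tnfrsf17.

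Genes of the wider pathway were described from lists drawn up with earlier results of these data known. Among 16 relatives outside the naming rule (other receptors and ligands of the family, sheddases and TRAF-binding proteins), 11 were measured, none was 2-fold different and the median was 0.04. Of all measured gene names, 1.46% were at least 2-fold higher and 0.571% lower, with a median of -0.02, so none among 11 is near the background share. Tifa, which encodes a TRAF6-binding adaptor, was highest at 0.74 ± 0.06, followed by Traf3ip2, which encodes the IL-17 receptor adaptor ACT1, at 0.54 ± 0.06. Adam17, which encodes the protease that sheds TNF, was at 0.24 ± 0.14. The lowest were Traip, at -0.30 ± 0.06, and Trafd1, at -0.07 ± 0.04.

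Of 42 genes of TNF receptor signalling, 40 were measured and the median was 0.09, against -0.02 for all measured gene names. Against background shares of 1.46% and 0.571%, 4 were 2-fold or more higher and 0 were 2-fold lower. The higher genes encode feedback inhibitors and an NF-kB subunit: Tnip3 at 3.62 ± 0.06, Nfkbia, the IkB-alpha gene, at 2.74 ± 0.03, Tnfaip3, the A20 gene, at 2.10 ± 0.04, and Relb at 1.27 ± 0.06. Tnip2 and Ikbkg were lowest, at -0.27 ± 0.04 and -0.23 ± 0.06. The death effector genes Casp8 and Mlkl stood at 0.06 ± 0.04 and 0.07 ± 0.06, and Ripk3 was detected on neither array. Birc3, the inhibitor of apoptosis gene bound by TRAF2, was also detected on neither array.

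Of 26 genes known to be induced by TNF, 25 were matched and 17 were measured. Of these, 11 were at least 2-fold higher and none was lower, with all 17 above 0 and a median of 1.35. Over all measured gene names, 1.46% were at least 2-fold higher and 44.5% above 0. The list was drawn up with earlier results of these data known, so its count is no independent evidence. Cxcl5 and Ccl2 were highest at 7.04 ± 0.03 and 5.36 ± 0.06, and Gadd45b and Tnfaip8 lowest at 0.03 ± 0.03 and 0.15 ± 0.06. Besides Tnfaip3, Nfkbia and Relb, given above, Cxcl1 (5.18 ± 0.06), Il6 (3.07 ± 0.14) and Tnfaip2 (2.81 ± 0.04) were also at least 2-fold higher. So were Csf1 (1.41 ± 0.04), Ier3 (1.35 ± 0.03) and Sod2 (1.07 ± 0.03). This list shares Tnfaip3, Nfkbia, Relb, Nfkb2, Tnfaip8 and Birc3 with the list before it. Effects of LPS itself and of TNF made by the cells cannot be told apart in this design.

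**Figure D5:**
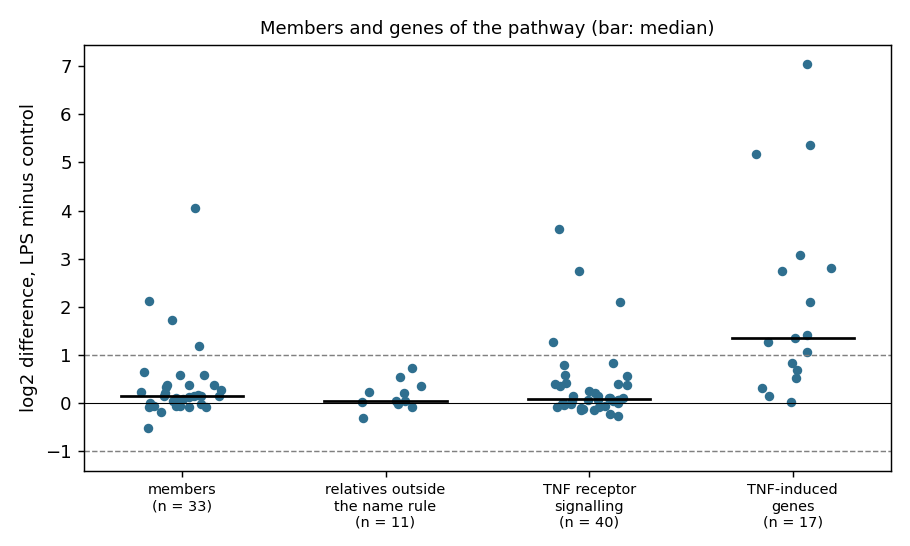
Log2 difference (LPS minus control) of each measured gene among the members (33), the relatives outside the naming rule (11), TNF receptor signalling (40) and TNF-induced genes (17), with the median as a bar and dashed lines at 2-fold. Points are spread sideways only to separate them. The first 3 medians lie between 0.04 and 0.15 and the last at 1.35.

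Epithelial markers were measured for 9 of 10 genes, and Cdx2, an intestinal transcription factor gene, was detected on neither array. All 9 were below 0, as were 11274 of 20328 measured gene names, and Cdh1 was nearest to 0 at -0.01 ± 0.03. Their median was -0.25, and summed signals were 754889 in control cells and 651938 with LPS. Krt20 and Vil1, genes of differentiated enterocytes, were at least 1.5-fold lower, at -0.92 ± 0.14 and -0.72 ± 0.06, and Epcam stood at -0.56 ± 0.03. Of all measured gene names, 2.68% were at least 1.5-fold lower. Since several members are known from leukocytes, leukocyte markers were set beside them. Of 10 macrophage markers, 4 were detected in control cells and 6 with LPS, with summed signals of 10248 and 10738. Of all 34648 gene names, 21274 were detected in control cells and 20996 with LPS. Itgam, Csf1r and Cd68 were detected on both arrays, at 0.09 ± 0.03, 0.06 ± 0.04 and 0.30 ± 0.06. Emr1, Mrc1 and Mpeg1 were detected only with LPS, with bounds of 1.96-fold, 1.83-fold and 1.52-fold. They read 30.3, 28.2 and 24.4 there, near the lowest signal of any detected probe on that array, 16.9. Ptprc, the pan-leukocyte gene, was detected only in control cells, at 52.9 against 14.7, and Lyz2, Tyrobp and Laptm5 on neither array.

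Of 10 T, B and NK cell markers, 4 were detected on both arrays, with sums over the list of 4076 in control cells and 3871 with LPS. These were Cd3e at 0.00 ± 0.06, Cd4 at -0.03 ± 0.04, Nkg7 at -0.09 ± 0.06 and Cd79a at 0.13 ± 0.14. Cd3d, Cd3g, Cd8a, Ms4a1 and Cd2 were among those detected on neither array. Of 7 fibroblast markers, Col1a2 and Col1a1 were measured, at 0.91 ± 0.14 and 0.33 ± 0.14, Pdgfra was detected only in control cells and the other 4 on neither array. Of 6 endothelial markers, Kdr and Pecam1 were measured, at 0.05 ± 0.03 and 0.00 ± 0.14. The part of any of these cell types in the members' values was not tested. In bulk RNA, more cells with a transcript and more transcript per cell cannot be told apart.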

How the data were processed

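Each array was deposited as processed spot intensity, which Agilent Feature Extraction 10.10.1.1 had background-subtracted and detrended, per the file headers. Dim spots carry a surrogate intensity there, as 11 of the 14 members detected on neither array did on both arrays, so no difference is given for them. Detection flags are the deposited ones. A probe printed repeatedly was called detected (well above background) where more than 0.5 of its spots were. Probe positions are those of the files (mm9), and their place in exons or UTRs was not analysed here.

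Control spots and 223 outlier-marked spots (1 of a member, Lta) were left out. Log2 processed intensity was scaled to each array's 75th percentile over non-control spots, spots of a probe were averaged, and the probe with the highest mean on both arrays stood for its gene name. Of 59305 spots, 55.8% (control) and 54.7% (LPS) were detected. Precision is limited by having 2 arrays. A gene was described at 2-fold and 1.5-fold, with no test. The script was tested on simulated data. Members and lists were chosen with earlier results of these data known. All members may be named. From the pathway lists the measured genes at least 2-fold different and the 2 highest and 2 lowest were named. Others, and the cell type markers, were named after their values were seen.

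The RefSeq table (GRCm38.p6) matched 49 of 51 members by accession. Alternatives changed the background correction (normexp with an offset of 50, or subtracted signal floored at 1), scaling (quantile, cyclic loess with a span of 0.7, median, or detected spots), the probe and the filter. Tools were R 4.3.3, limma 3.58.1, Python 3.11.15, numpy 2.4.6, pandas 2.3.3 and matplotlib 3.10.9.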

Additional observations from a re-analysis of the deposited data

How the results depend on the processing

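With 1 array per group no paired analysis was possible because no replicate exists, and no array could be left out. The count of 4 members at least 2-fold higher was the same with normexp, floored subtraction, quantile normalization, cyclic loess, median centring, the percentile of detected spots, the looser flag and the probe brightest in control cells. Over all gene names the count under these ran from 170 of 20304 with normexp to 744 of 24562 with the looser flag. It was 3 with the median over probes, where Tnfsf12Tnfsf13 dropped out, and 3 without the readthrough and antisense names, an alternative chosen after seeing the data. At or above the median brightness 14 members were measured and 0 were 2-fold higher, since that filter removes the 4. Of the 10164 gene names kept by it, 94 were 2-fold higher. With no background filter 51 members counted, 6 were 2-fold higher and 1 was lower. Of all 34648 gene names without that filter, 1358 were higher and 1174 lower. Under the scanner's looser detection flag 1 (Tnfrsf18) was 2-fold lower, as were 553 of 24562 gene names, and 0 members were detected in control cells alone. The members' median lay between 0.12 and 0.19 throughout. Signs changed only for Tradd, Tnfsf13os and Tnfsf15, at 0.00, -0.06 and -0.06 as reported. Keeping outlier-marked spots, also chosen after seeing the data, touched 1 member, Lta. The bounds of Fas, Cd27 and Tnfrsf18 fell under 2-fold with normexp, and the cause was not tested. Dim signals near background and the lack of replicate cultures limit all of these values.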

Other observations

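The Lta probe held 1 discordant spot. On the LPS array 1 of its 10 spots read 42.4 while the other 9 lay between 4.37 and 10.97, and the same position read 3.76 on the control array. The scanner software marked it as an outlier, and with it kept the mean LPS signal was 11.5 in place of 8.10. Lta was detected on neither array either way.

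Several members lie in clusters whose genes had different values. On chromosome 17 the Tnfsf9, Cd70 and Tnfsf14 probes span 82.2 kb, and of these only Tnfsf9 was detected. On chromosome 6 the Cd27, Ltbr and Tnfrsf1a probes span 129 kb. There Ltbr and Tnfrsf1a stood at 0.24 and 0.37, while Cd27 was detected only with LPS. On chromosome 4 Tnfrsf4 and Tnfrsf18 lie within 12.4 kb, with Tnfrsf4 at -0.09 and Tnfrsf18 detected only in control cells. Tnfrsf1b stood at 1.72, and Tnfrsf8, whose probe lies with it in a span of 80.3 kb, was detected on neither array.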
